A study of Mus musculus with 2 samples.

Results

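Box C/D small nucleolar RNAs were examined in macrophages with and without tristetraprolin (TTP), the mRNA-destabilising protein encoded by Zfp36. The members were chosen by gene symbol and by the measured level: a gene was taken when its symbol starts with SNORD in any case, or is U3 or U8, and when the mean of its WT and TTPΔM values was at least 1 FPKM (fragments per kilobase of gene, scaled to the size of the library). Of 37451 genes in the table, 401 carried such a symbol and 163 of these reached the minimum. The WT library came from C57BL/6 mice and the TTPΔM library from C57BL/6 TTP fl/fl LysMCre littermates, in which Cre is driven by the lysozyme 2 locus and removes the floxed gene in cells of the myeloid lineage. Bone marrow of animals 7 to 9 weeks old was grown into macrophages with CSF-1 from L929 cells. Both cultures received 100 µM 4-thiouridine for 16 h and then 10 ng/ml LPS for 6 h, and total RNA was sequenced after removal of ribosomal RNA. There was 1 library per genotype, so every difference below is between 2 libraries and has no replicate check.

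Box C/D snoRNAs are short nucleolar RNAs named for a pair of conserved sequence elements. Most of them guide the methyltransferase fibrillarin to a position in ribosomal or spliceosomal RNA by base pairing, and add a methyl group to the ribose there. U3 and U8 do not act in this way but are needed for the cleavage of the ribosomal RNA precursor. In mammals most box C/D snoRNAs are cut out of introns of longer host genes after splicing, while U3, U8 and a few others have promoters of their own.

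The targeted gene followed its label. Zfp36 stood at 65.3 FPKM in WT and 16.7 FPKM in TTPΔM, a difference of -1.90 in log2(FPKM + 1), the scale used for all ratios below. All 8 macrophage markers were above 1 FPKM in both libraries, among them Emr1 at 379.9 FPKM in WT and 357.1 FPKM in TTPΔM, and Cd68 at 387.6 and 389.6 FPKM. Their summed level was 4001 FPKM in WT and 2864 FPKM in TTPΔM, and most of that difference lay in Lyz2, the most abundant of them, at 2481 and 1356 FPKM. Of 5 neutrophil and progenitor markers, S100a8 stood at 50.7 and 100.02 FPKM, which made up nearly the whole summed level of 50.8 and 100.1 FPKM, while Ly6g, Elane and S100a9 were listed at 0 in both libraries and Mpo was at 0.09 and 0.05 FPKM. The summed level of 4 T cell markers was 1.04 and 0.80 FPKM, with Cd4 the most abundant and Cd3e listed at 0 in both libraries. That of 3 B cell markers was 0 in WT and 0.08 FPKM in TTPΔM, that of 4 stromal markers 0.55 and 0.30 FPKM, and that of 3 erythroid markers 0.37 and 0.06 FPKM. Whether the difference in Lyz2 or S100a8 has a part in what follows was not tested.

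The members were 60 to 238 nt long with a median of 80 nt, and ratios rather than levels are compared here. Most low FPKMs of single-exon genes (96.3% in WT and 96.6% in TTPΔM) were whole multiples, to within 0.05, of 1 value at each length. At 71 nt this value, the worth of 1 fragment, was 29.0 FPKM in WT and 32.8 FPKM in TTPΔM; at 135 nt it was 3.35 and 3.79 FPKM, a drop far steeper than the rise in length, so that FPKMs of members of different lengths are not on a common scale. The worth in TTPΔM was 1.13 times that in WT at each of these lengths, so the FPKM scaling itself was even over length; the ratios still differed between length classes, with no steady trend. Dividing each FPKM by this worth gave an estimated number of fragments, 70819 over the 163 members in WT and 83018 in TTPΔM. The 10 members with the most fragments held 54.3% of them in WT and 52.5% in TTPΔM. Intervals given below are 95% exact (Clopper-Pearson) intervals from these estimates. They cover counting error only, since copies made by PCR are not independent molecules.

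Most box C/D snoRNA genes were higher in the TTPΔM library, a direction that held against protein-coding genes and was lost against a set of short genes that are mostly small nuclear RNA genes and mostly longer than the members. Of the 163 members, 158 were above 0 in both libraries, and 128 of these were higher in TTPΔM. Their median log2 ratio was 0.36, and the middle 50 percent of genes lay between 0.11 and 0.76. The median over all 10324 genes tested in the same way was 0.03, and over 8065 protein-coding genes it was -0.0015. At least 2-fold higher in TTPΔM were 25 members, or 15.8%, against 3.62% of all genes tested, and at least 2-fold lower were 4, or 2.53%, against 1.81%. Since the minimum of the rule used the same values, these shares are a description.

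Box H/ACA and small nuclear RNA genes were also mostly higher in TTPΔM. Over 177 box H/ACA genes, the class that guides pseudouridylation, the median log2 ratio was 0.45, with 150 genes higher in TTPΔM, 12.4% at least 2-fold higher and 5.65% at least 2-fold lower. Over 626 genes of small nuclear RNA the median was 0.57, with 27.0% at least 2-fold higher and 5.27% at least 2-fold lower. Over 102 miRNA genes, of 195 that reached the minimum, it was 0.18, and 37.3% were lower in TTPΔM. Of these miRNA genes 30.4% were at least 2-fold higher and 11.8% at least 2-fold lower. The 1066 other single-exon genes of the same range of lengths were not a separate group. They include 624 small nuclear RNA genes and 175 box H/ACA genes. Their median was 0.41, with 75.2% higher in TTPΔM, 22.6% at least 2-fold higher and 6.38% at least 2-fold lower. Both shares past 2-fold were larger than the 15.8% and 2.53% of the members. Of 1477 such genes that reached the minimum, 1066 were above 0 in both libraries, against 158 of 163 members. Their fragments were not compared with those of the members, so the larger shares are not read as a stronger shift. Outside both classes 267 of the 1066 genes were left, of 421 that reached the minimum. Their median was 0.16, with 19.1% at least 2-fold higher and 9.36% at least 2-fold lower. Equal fragments in both libraries would give a TTPΔM value 1.13 times that in WT. The medians of the miRNA genes and of these 267 genes are near the log2 of 1.13, so neither median shows a shift beyond the scaling for depth. When the ratios were centred on the median of the 1066 genes, a choice made after the values were seen, the median of the box C/D genes was -0.046, with 7 members at least 2-fold higher and 9 at least 2-fold lower in place of 25 and 4. Centred on the 267 genes, which was also chosen later, the median was 0.20, with 12 and 6. Since the median of the 267 genes is near the log2 of 1.13, this comes close to dividing by the worth of 1 fragment. The 1066 genes were also not matched in length: 82 of them were 60 to 90 nt long, against 117 of the 158 members. Within 6 classes of length the median of the box C/D genes was above that of the other short genes in 4 and below it in 2.

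Well-covered members were nearly uniform in direction in FPKM, without centring on other short genes, and less so before scaling for depth. All 17 members with a mean of at least 1000 fragments were higher in TTPΔM in FPKM, with a median log2 ratio of 0.44, although 2 of them, a U3 copy on chromosome 11 and Snord15a, had fewer fragments in TTPΔM before scaling for depth. Of the 82 members with 100 to 1000 fragments 71 were higher, with a median of 0.37, although 20 had fewer fragments in TTPΔM before that scaling. Among 45 members with 10 to 100 fragments 29 were higher and 19 had fewer fragments in TTPΔM. Here the ratios spread from -0.24 at the lower quartile to 0.62 at the upper. Of 14 members with under 10 fragments 11 were higher, with a median of 0.58. All 4 members at least 2-fold lower had under 20 fragments in the mean of both libraries, whereas 20 of the 25 at least 2-fold higher had 20 or more and 11 had 100 or more.

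**Figure D1:**
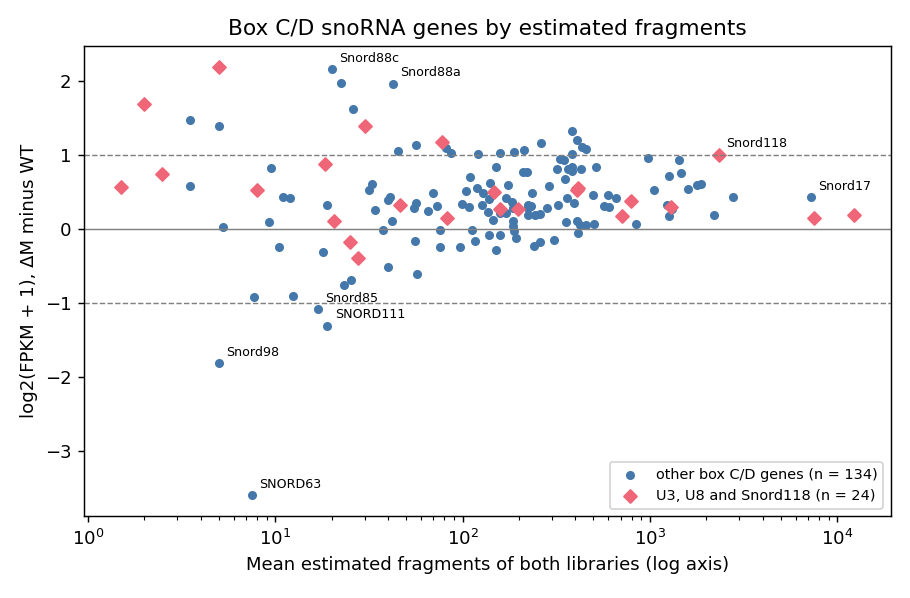
Log2 ratio of TTPΔM to WT (vertical axis, from FPKM + 1) of the 158 members above 0 in both libraries, against their mean estimated number of fragments (horizontal log axis). Diamonds are U3, U8 and Snord118, dots the other members, and dashed lines mark 2-fold; without centring on other short genes, the 17 members beyond 1000 fragments all lie above 0 (2 of them had fewer fragments in TTPΔM before scaling for depth), and the 4 members below the lower dashed line all lie left of 20 fragments.

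U3, the most abundant box C/D snoRNA of the nucleolus and part of the particle that processes the small ribosomal subunit, was represented by 47 rows. Of these, 24 were members, 22 were above 0 in both libraries, and 21 were listed at 0 in both. The copy at chr10:39978273-39978484 stood at 8959 FPKM in WT and 10209 FPKM in TTPΔM, a log2 ratio of 0.19 (interval 0.15 to 0.22) from 12228 and 12322 estimated fragments. The copy at chr11:87275788-87276001 stood at 5364 and 5949 FPKM, a log2 ratio of 0.15 (interval 0.10 to 0.20) from 7556 and 7437 estimated fragments. In WT these copies held the most fragments of any member, while in TTPΔM Snord17, with 7902, lay between them. The ratios of both U3 copies were below the median of 0.36 over all members and below that of 0.41 over other short genes.

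The other U3 rows were far lower in fragments. Over the 22 rows the median log2 ratio was 0.35 and 20 were higher in TTPΔM, but the 3 at least 2-fold higher rested on few fragments, as the copy on chromosome 5 at 107.06 and 282.5 FPKM did with 18 and 42. The copy on chromosome 8 had 1 fragment in WT and 9 in TTPΔM (0.63 and 6.43 FPKM), with an interval of the log2 ratio from 0.50 to 8.81. The chromosome 19 copy, at 885 and 1086 FPKM, and the chromosome 12 copy, at 502 and 567 FPKM, had log2 ratios of 0.29 and 0.17. A run of 4 U3 genes within the gene Tex14 on chromosome 11 had the same sequence over their whole length, yet stood at 5364, 520, 254 and 23.5 FPKM in WT and at 5949, 680, 368 and 17.7 FPKM in TTPΔM. Reads that lie wholly inside such copies cannot be told apart, so the division among them is uncertain.

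U8, which is needed for the large ribosomal subunit, had higher ratios than the main copies of U3. Its annotated gene Snord118 at chr11:68886929-68887063 had 5624 FPKM in WT and 11309 FPKM in TTPΔM, a log2 ratio of 1.01 (interval 0.92 to 1.10) from 1679 and 2987 estimated fragments. It was the 1 member with at least 1000 fragments that reached 2-fold, but only just: centred on all genes tested its log2 ratio was 0.98, divided by the worth of 1 fragment 0.83, and centred on the 1066 other short genes 0.60. Snord118 was picked out after its values were seen. A second gene, listed as U8 at chr12:13170435-13170569, had 174 and 394 FPKM, a log2 ratio of 1.17 (interval 0.68 to 1.69), and the other 3 rows named U8 were listed at 0 in both libraries. Snord13, another snoRNA with its own promoter, stood at 9449 and 11867 FPKM, a log2 ratio of 0.33.

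Near the minimum, values rested on single fragments. The members just inside were the U3 copy at chr11:86130768-86130989, at 0.63 and 1.43 FPKM, and that at chr2:146369234-146369361, listed at 0 in WT and at 4.54 FPKM in TTPΔM. Just outside were U3 copies on chromosomes 7, listed at 0 in WT and at 1.04 FPKM in TTPΔM, and 2, at 0.87 FPKM in WT and listed at 0 in TTPΔM. Besides the chromosome 2 copy, 3 members were listed at 0 in WT: SNORD30 on chromosome 1, with 72.2 FPKM in TTPΔM, SNORD58 on chromosome 14, with 34.4 FPKM, and a U3 copy on chromosome X, with 29.7 FPKM. SNORD78 was the 1 member listed at 0 in TTPΔM, with 92.7 FPKM in WT. None of these 5 had more than 2.50 estimated fragments in the library where it was seen, and no ratio is given for them.

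Of members with a mean of at least 100 FPKM, the 5 largest rises were Snord88c, Snord93, Snord88a, SNORD25 and the chromosome 5 copy of U3. Snord88c had 105 FPKM in WT and 476 FPKM in TTPΔM, a log2 ratio of 2.17 (interval 1.03 to 3.51). Snord88a, a neighbour of it in the gene 2410002F23Rik, had 249.9 and 981 FPKM, a log2 ratio of 1.97 (interval 1.22 to 2.79). Snord93 had 290.02 and 1148 FPKM, a log2 ratio of 1.98 (interval 0.94 to 3.16). These rises came from genes with 8 to 19 fragments in WT. Among those with more, SNORD101 in the ribosomal protein gene Rps12 rose from 6036 to 15079 FPKM, a log2 ratio of 1.32 from 239 and 528 fragments. Snord72 in Rpl37 rose from 5045 to 11599 FPKM, a log2 ratio of 1.20 from 270.0 and 549 fragments. SNORD101 and Snord72 were picked out after their values were seen.

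The 5 largest falls were in genes with few fragments. SNORD63, in an intron of Hspa9, had 425.8 FPKM in WT and 34.4 FPKM in TTPΔM, which were 14.0 fragments and 1 fragment, and a log2 ratio of -3.59 (interval -9.03 to -0.91). SNORD111 had 647 and 261 FPKM, a log2 ratio of -1.30 (interval -2.51 to -0.22). For Snord98, at 312 and 88.2 FPKM, Snord85, at 634 and 299 FPKM, and Snord1a, at 265 and 139.5 FPKM, the intervals of the ratio included 0. Those of SNORD63 and SNORD111 lay below 0 but included falls of less than 2-fold.

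Gas5 is a noncoding gene whose introns carry box C/D snoRNAs and whose spliced RNA belongs to the class with a terminal tract of pyrimidines, shared with ribosomal protein genes. Gas5 itself stood at 170.5 FPKM in WT and 200.6 FPKM in TTPΔM, a log2 ratio of 0.23. It held 9 members, 8 of them above 0 in both libraries, and all 8 were higher in TTPΔM, their log2 ratios running from 0.04 to 0.85 around a median of 0.38. SNORD44 had 15247 FPKM in WT and 27428 FPKM in TTPΔM, a log2 ratio of 0.85 (interval 0.63 to 1.06), and SNORD74 had 4844 and 8515 FPKM, a log2 ratio of 0.81. SNORD77 had 29826 and 45441 FPKM, a log2 ratio of 0.61, and Snord47 had 11934 and 16449 FPKM, a log2 ratio of 0.46. At the low end, SNORD79 had 3231 and 3322 FPKM, a log2 ratio of 0.04 (interval -0.26 to 0.34). All Gas5 members overlap an exon of some Gas5 transcript, so reads of the host could be counted for them. SNORD24 had 21789 and 26258 FPKM, SNORD81 had 13414 and 16556 FPKM and SNORD75 had 9785 and 11986 FPKM, with log2 ratios from 0.27 to 0.30. A copy of SNORD81 on chromosome 3, outside Gas5, was seen with 3 and 4 fragments.

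Snhg1, a noncoding host of the same kind, stood at 12.7 FPKM in WT and 20.2 FPKM in TTPΔM, a log2 ratio of 0.63. Its 8 members had a median log2 ratio of 0.35 and ranged from -0.25 to 1.63, with 6 higher in TTPΔM. SNORD29 had 10032 FPKM in WT and 19270 FPKM in TTPΔM, a log2 ratio of 0.94, and Snord22 had 4511 and 8638 FPKM, also 0.94. SNORD25, the member with the largest ratio, had 545 and 1689 FPKM from 14.0 and 38.3 fragments. SNORD30 had 3543 and 2988 FPKM, a log2 ratio of -0.25 (interval -0.67 to 0.18), and SNORD27 had 4759 and 4505 FPKM, a log2 ratio of -0.08 (interval -0.41 to 0.25). SNORD26, SNORD28 and SNORD31 lay between these, with log2 ratios of 0.29, 0.33 and 0.36. Like those of Gas5, all members of Snhg1 overlap an exon of their host.

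The ribosomal protein gene Rpl13a stood at 46.7 FPKM in WT and 71.9 FPKM in TTPΔM, a log2 ratio of 0.61, and held 4 members. Snord33 had 5014 FPKM in WT and 8683 FPKM in TTPΔM, a log2 ratio of 0.79, Snord32a had 7753 and 10713 FPKM, a ratio of 0.47, and Snord35a had 7903 and 10617 FPKM, a ratio of 0.43. Snord34 had 8858 and 7845 FPKM, a log2 ratio of -0.18 (interval -0.43 to 0.08). Hspa8, which encodes a constitutive chaperone, stood at 73.4 and 83.6 FPKM, and its 3 members were close to each other: Snord14c had 14123 and 20411 FPKM, Snord14d had 21369 and 31127 FPKM, and Snord14e had 33247 and 45082 FPKM. Their log2 ratios were 0.53, 0.54 and 0.44. All 3 members of Hspa8, and Snord32a, Snord33 and Snord34 in Rpl13a, overlap an exon of their host. Other genes among the 10 with the highest mean FPKM, an order that depends on length and differs from that by fragments, where copies of U3 and Snord17 came first, were Snord12, at 15477 and 26152 FPKM, Snord83b, at 24860 and 28329 FPKM, and SNORD58 in Rpl17, whose genes had 21107 and 26249 FPKM and 18688 and 19367 FPKM.

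Of the 163 members, 78 lay in an intron of a longer gene on the same strand, 53 overlapped an exon of some transcript of such a gene, and 32 lay in no such gene. The median log2 ratio was 0.31, 0.45 and 0.46 in these groups. For members that overlap an exon, reads of the host could be counted for the snoRNA, which was not tested. Of their values of up to 50 fragments, 3 of 16 were whole to within 0.05 of a fragment. Such values were whole in 40 of 46 cases in introns and in all 30 outside hosts. Without centring on other short genes, over 57 host genes past the minimum, the median log2 ratio of the hosts was 0.05 and that of their members' medians was 0.35, and 38 hosts had a lower ratio than the median of their members. Across these 57 hosts Pearson's r between host and members was 0.18 and Spearman's rho 0.09, a description of genes that share the same 2 libraries. Some ribosomal protein hosts stood near the minimum, such as Rpl17 at 0.94 and 1.06 FPKM and Rps13 at 1.38 and 2.09 FPKM. Others were far above it, such as Rps3 at 63.5 and 68.1 FPKM. How far such low values reflect the RNA of the host was not tested.

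Of the 57 hosts 3 were at least 2-fold lower in TTPΔM, 4 with a pseudocount of 0.1 FPKM and 0 with 10 FPKM, and the median of the members was above 0 in 2 of the 3. Nop56, which is both a host and a core protein of the box C/D particle, stood at 45.8 FPKM in WT and 22.3 FPKM in TTPΔM, a log2 ratio of -1.004 that was -0.79 with a pseudocount of 10 FPKM. Of its members, SNORD56 had 4515 and 9524 FPKM, a log2 ratio of 1.08, Snord57 had 6716 and 7703 FPKM, and Snord110 had 8547 and 9892 FPKM. SNORD56 and Snord57 overlap an exon of Nop56, so reads of the host could be counted for them. The log2 ratios of Snord57 (0.20, interval -0.07 to 0.46) and Snord110 (0.21, interval -0.04 to 0.47) were not distinct from 0 and lay below the median of 0.41 of other short genes. The noncoding gene 2410006H16Rik on chromosome 11 had 14.1 FPKM in WT and 4.90 FPKM in TTPΔM, a log2 ratio of -1.36 that was -0.70 with a pseudocount of 10 FPKM, while its members were all higher: Snord49a had 8220 and 17776 FPKM, Snord49b had 7943 and 14020 FPKM, and Snord65 had 5784 and 8106 FPKM. In the third, Rc3h2, at 8.54 and 3.76 FPKM, a log2 ratio of -1.003 that was -0.43 with 10 FPKM, the member Snord90 was lower as well, at 215 and 132 FPKM, a log2 ratio of -0.69 (interval -1.61 to 0.17). Apart from Nop56, these hosts were picked out after their values were seen.

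**Figure D2:**
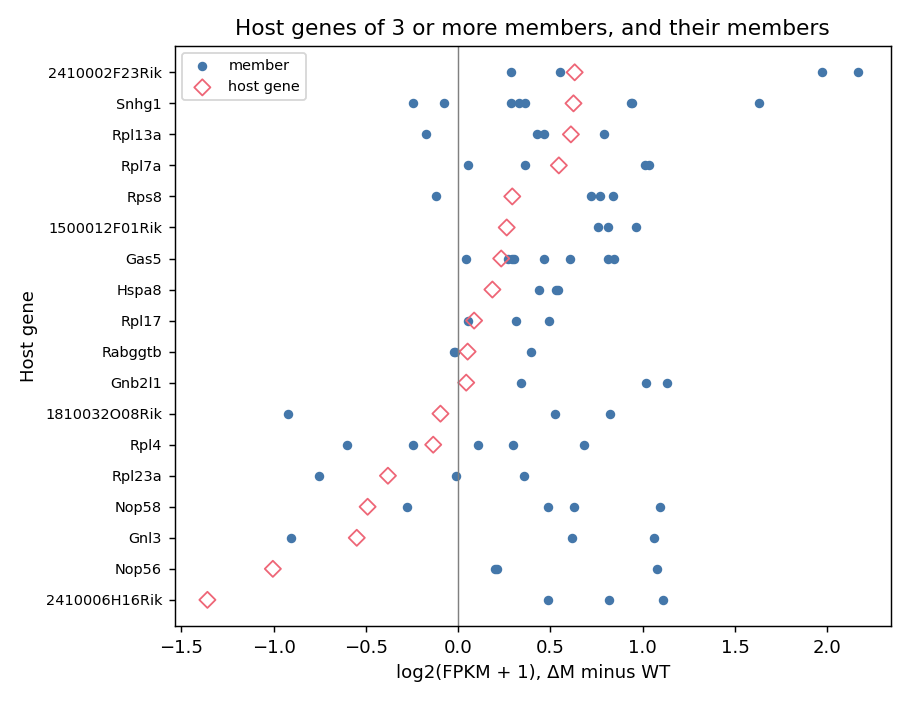
Log2 ratio of TTPΔM to WT (horizontal axis, from FPKM + 1) of the 18 host genes of 3 or more members that reached a mean of 1 FPKM (diamonds; Tex14, at 0.63 and 0.72 FPKM, is left out) and of those members (dots), ordered by the ratio of the host. Of 7 hosts below 0, 6 had a median of their members above 0. Nop56 lies at -1.004 and 2410006H16Rik at -1.36, with all their members above 0 where ratios are not centred on other short genes. Some hosts were near the minimum, such as Rpl17 at 0.94 and 1.06 FPKM.

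The 236 rows listed at 0 in both libraries were mostly of the imprinted clusters, which are known for expression in brain. All 166 SNORD rows of the Snrpn cluster on chromosome 7 and all 19 rows of the Meg3-Rian-Mirg cluster on chromosome 12 were listed at 0 in WT and in TTPΔM. At Snrpn, 69.3% of the 166 rows had a sequence that occurs again, letter for letter, elsewhere in the genome, in up to 33 places. How reads of exact copies were treated is uncertain: uniquely mapped reads were kept, yet some members with exact copies had high values, such as a U3 copy in Tex14 and a SNORD50 gene at 7528 FPKM in WT and 9170 FPKM in TTPΔM. Whether the copies have a part in the values of 0 was not tested. At Meg3-Rian-Mirg none of the 19 rows had such a copy. Outside the clusters 51 rows were listed at 0, 41 of them in no longer gene on their strand, and 19 of the 51 had an exact copy elsewhere, against 10 of the 163 members.

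The sequence elements that name the class were looked for as TGATGA, the core of box C, and CTGA, box D, on the annotated strand of the NCBIM37 (mm9) genome. TGATGA occurred in 105 of the 163 members (64.4%) and CTGA in 157 (96.3%), and both in 104 (63.8%). The short CTGA alone is common: it occurred in 54.1% of 259 box H/ACA genes and in 39.5% of 1219 other short genes past the minimum, where TGATGA occurred in 2.70% and 4.02%. Both occurred in 6 of the 259 box H/ACA genes (2.32%) and in 34 of the 1219 other short genes (2.79%), and on the opposite strand in none of the members. Among the 51 rows at 0 outside the imprinted clusters, 9 (17.6%) held both. With TGATGA in the first 25 nt and CTGA in the last 25 nt, as in 84 members, the median log2 ratio was 0.39, and in the 74 other members above 0 in both libraries it was 0.36. A match of letters is a description, and the elements tolerate other letters, as in SNORD56 and Snord57, where TGATGA was not found.

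The members of Hspa8 show how alike neighbours in 1 host can be. Below, in NCBIM37 and with the first TGATGA and the last CTGA in capitals, are Snord14c (chr9:40611666-40611751, plus strand), Snord14d (chr9:40612078-40612163, plus strand) and Snord14e (chr9:40612831-40612920, plus strand). Snord14c and Snord14d are identical over 97.7% of their alignment, and Snord14e is identical to each over 78.9%.
Snord14c: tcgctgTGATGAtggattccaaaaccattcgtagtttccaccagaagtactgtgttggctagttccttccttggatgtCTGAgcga
Snord14d: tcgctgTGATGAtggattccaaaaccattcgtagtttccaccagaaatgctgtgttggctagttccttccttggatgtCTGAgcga
Snord14e: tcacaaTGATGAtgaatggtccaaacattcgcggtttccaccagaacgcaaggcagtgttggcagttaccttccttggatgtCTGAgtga

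In the splicing factor gene Sf3b3 related neighbours had opposite ratios. SNORD111 (chr8:113366283-113366358, minus strand) had 28.0 fragments in WT and 10.0 in TTPΔM, and Snord111 (chr8:113362428-113362516, minus strand) had 2416 FPKM in WT and 5402 FPKM in TTPΔM, from 177 and 350 fragments, a log2 ratio of 1.16 (interval 0.90 to 1.43). The host stood at 15.2 and 16.0 FPKM. Their sequences, identical over 70.7% of the alignment, are given with the same letters in capitals.
SNORD111: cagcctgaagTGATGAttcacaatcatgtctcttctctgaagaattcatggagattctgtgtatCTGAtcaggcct
Snord111: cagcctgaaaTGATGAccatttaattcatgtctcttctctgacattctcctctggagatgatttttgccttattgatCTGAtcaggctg

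The U8 genes share 95.6% of their letters, so that their reads can be told apart only where they differ. Both are printed 135 nt long, Snord118 from the plus strand of chromosome 11 and U8 from the minus strand of chromosome 12, at the positions given above. In both, TGATGA begins at position 53, counted from 1 at the start of the gene, and not near the start as in most methylation guides.
Snord118: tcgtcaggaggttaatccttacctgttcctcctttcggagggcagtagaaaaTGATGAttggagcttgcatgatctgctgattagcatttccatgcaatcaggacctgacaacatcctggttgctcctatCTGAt
U8: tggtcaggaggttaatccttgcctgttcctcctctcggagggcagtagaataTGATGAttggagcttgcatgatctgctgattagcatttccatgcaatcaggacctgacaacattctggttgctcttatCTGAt

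The members of 2410006H16Rik, which had ratios above 0 while that of their host was below, all lie in introns on the plus strand, Snord49b at chr11:62416581-62416652, Snord49a at chr11:62416952-62417023 and Snord65 at chr11:62418017-62418088.
Snord49a: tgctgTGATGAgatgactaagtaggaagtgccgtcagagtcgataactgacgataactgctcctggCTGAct
Snord49b: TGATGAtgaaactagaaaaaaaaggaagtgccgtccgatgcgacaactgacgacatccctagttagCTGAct
Snord65: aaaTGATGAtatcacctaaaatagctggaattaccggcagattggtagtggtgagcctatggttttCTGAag

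Of the genes of the core proteins of the box C/D particle, Nop56 stood at 45.8 and 22.3 FPKM as given above, Nop58 had 2.40 FPKM in WT and 1.42 FPKM in TTPΔM, Nhp2l1 had 1.51 and 1.01 FPKM, and the methyltransferase gene Fbl was under the minimum at 0.22 and 0.19 FPKM. Fbl, and also the nucleolin gene Ncl at 0.86 and 0.69 FPKM, stood this low although every cell uses them. Whether low values of this table reflect low expression, here, in the hosts or in the genes below, was not tested. Of 11 genes for assembly of the particle, 7 were tested, with a median log2 ratio of 0.05 and none past 2-fold. Of 5 genes for release from the intron and trimming, the debranching enzyme gene Dbr1 had 5.56 and 7.70 FPKM, a log2 ratio of 0.41, and the nuclease genes Xrn2, at 58.8 and 56.6 FPKM, and Exosc10, at 25.5 and 26.9 FPKM, differed little. Of 6 genes of the H/ACA particle, 2 were tested and none was past 2-fold.

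The genes of the U3 particle and the small subunit processome were lower in TTPΔM more often than higher, many of them by little. Of 27 genes 25 were tested, and 20 of these were lower, 3 of them by under 0.1, with a median log2 ratio of -0.18 against 0.03 over all genes tested, of which 45.9% were lower, as were 50.2% of protein-coding genes. Past 2-fold were 0 of the 25 on the scale used here, but 4 with a pseudocount of 0.1 FPKM, of which 3 were lower and 1 was higher. Rcl1 had 14.2 FPKM in WT and 6.68 FPKM in TTPΔM, a log2 ratio of -0.98 that was -1.07 with 0.1 FPKM and -1.01 centred on all genes tested. Wdr3 had 6.34 and 3.03 FPKM, a log2 ratio of -0.87 that was -1.04 with 0.1 FPKM, and Wdr75 had 3.20 and 1.42 FPKM, -0.80 and -1.12, while Nol6 went the other way, at 1.62 and 3.51 FPKM, 0.78 and 1.07. These genes of the list were picked out after their values were seen.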

How the data were processed

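The RNA of both cultures was fragmented and ligated to an adaptor, and its cDNA was selected by size on a gel. How this selection acted on genes as short as the members was not tested. Reads were trimmed with Cutadapt and mapped to mm9 with Segemehl 0.1.3-349M, keeping unique matches. The deposited FPKM values were made by the authors with Cufflinks 2.0.2 on Ensembl exons. Settings for strand were not given in the sources used here. Library totals were not analysed here; the worth of 1 fragment gave the relative depth. Ratios were log2(FPKM + 1) in TTPΔM minus WT for genes above 0 in both libraries whose mean reached 1 FPKM; no test was possible, and 2-fold was the threshold. A gene whose TTPΔM value was not a number (1 gene) was left out. The worth of 1 fragment was fitted by gene length, from 55 to 245 nt, on single-exon genes, and made 96.3% of 818 low WT values and 96.6% of 820 low TTPΔM values (up to 12 fragments) whole to within 0.05 of a fragment, where evenly spread values would give 10%. The first form of this fit failed on simulated data, because it took a common value of several fragments for 1 fragment; it was replaced by a form that recovered the simulated worth, and the values fitted to the real libraries were the same with both. Gene types, hosts and sequences came from GENCODE on NCBIM37. Named genes were U3 and U8, the snoRNAs of Gas5, Snhg1 and Rpl13a, the 10 with the highest mean, the 5 largest rises and falls with a mean of at least 100 FPKM, those next to the minimum, their hosts and the core proteins. Alternatives changed the pseudocount, the minimum, the scaling, the fold and the rows kept. The members and lists were chosen with earlier results of these data known. Python 3.11.15, numpy 2.4.6, pandas 2.3.3, scipy 1.17.1 and matplotlib 3.10.9 were used.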

Additional observations from a re-analysis of the deposited data

How the results depend on the processing

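No paired analysis was possible because there was 1 library per genotype. The median log2 ratio of the box C/D genes stayed between 0.33 and 0.39 with other pseudocounts, other minimums, genes at 0 kept, named copies left out, and centring on all genes or on protein-coding genes. Dividing by the worth of 1 fragment takes out the scaling for depth and also leaves out the pseudocount, so both choices changed at once. The median was then 0.18 and 13 genes were at least 2-fold higher. Centred on other short genes, added after the data were seen, the median was -0.046, with 7 genes at least 2-fold higher and 9 lower; this shift of 0.41 is the median of those short genes. Centring on the 267 of them that are neither small nuclear RNA nor box H/ACA genes was also added later. The median was then 0.20 and 12 genes were at least 2-fold higher, so the sign differed between these sets of short genes. The median of the 267 genes is near the log2 of 1.13, the ratio of the worth in TTPΔM to that in WT. Centring on them thus comes close to dividing by that worth and is hardly a separate reference. With a mean of at least 20 fragments, also added later, 0 genes were at least 2-fold lower. With symbols carried by 1 row only, which left 83 genes, 12 were at least 2-fold higher and 2 lower. At 1.5-fold the numbers were 51 and 9. Of the named genes with a ratio, 5 crossed 2-fold with a pseudocount of 0.1 FPKM (Rcl1, Wdr3, Wdr75, Nol6 and a copy of U3), 4 with 10 FPKM (Nop56, Rc3h2, 2410006H16Rik and a copy of U3), and 2, Snord118 and Rcl1, when centred on all genes tested, and none changed sign while past 2-fold. With 1 library per genotype, differences between cultures cannot be told apart from those between genotypes.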
